A study of Homo sapiens with 6 samples.

Results

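The genes of laminin-332 and of the hemidesmosome were followed here in T24 cells with and without TGF-β1. They are 9 genes chosen by name, matched on the symbols of the deposited FPKM table (fragments per kilobase of gene, scaled to library depth), out of 58735 gene rows. They are the laminin chains LAMA3, LAMB3, LAMC1 and LAMA5, the integrin subunits ITGA6, ITGA3 and ITGB4, the cytolinker PLEC and the tetraspanin CD151. All 9 were found as a single row each, and 8 of them reached 1 FPKM in at least 3 libraries and entered the test. LAMA3 did not.

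T24, labelled WT, is a long-used human cell line derived from a carcinoma of the bladder urothelium. Total RNA was sequenced as 150 bp read pairs in 6 libraries: 3 control libraries without the cytokine and 3 libraries of cells given TGF-β1 at 10 ng/ml, written TGF-b1 below, all collected at 48 h (day 2) from medium with 10% serum. Nothing in the labels ties the replicates to separate cultures. The p-values therefore measure the spread between libraries only, and that spread may be technical. No transgene or deletion is labelled, and all libraries are of 1 line.

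Laminins are heterotrimers of an alpha, a beta and a gamma chain that form the basement membrane sheet under epithelia. Laminin-332, which contains LAMA3 and LAMB3, anchors stratified and transitional epithelia, whereas trimers with LAMA5 and LAMC1 are found in many basement membranes. The integrin of ITGA6 and ITGB4 binds laminin-332 and, through plectin (PLEC), ties it to keratin filaments in the hemidesmosome. ITGA3 pairs with ITGB1 into a second laminin receptor, and CD151 is a membrane protein that associates with both receptors.

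The libraries held 20703945 to 23678772 fragments on uniquely named genes, and 93.5 to 95.5% of reads mapped. TGF-b1 libraries differed from controls in a known target: PMEPA1, a feedback inhibitor of the pathway, stood at 15.2, 14.6 and 12.4 FPKM in control and 75.3, 63.6 and 66.2 FPKM in TGF-b1 libraries. Of 12 epithelial and urothelial markers, 8 were under 1 FPKM in every library, among them E-cadherin (CDH1) at 0.014 to 0.0572 FPKM, while the simple keratins KRT8 and KRT18 reached 185 to 243 and 212 to 375 FPKM. The summed level of the 12 was 471 to 638 FPKM in control and 407 to 439 FPKM in TGF-b1 libraries, and the part of this difference in the results was not tested. Summed, the fibroblast markers stayed at or under 0.188, the endothelial markers at or under 0.745 and the leukocyte markers at or under 0.322 FPKM in all 6 libraries.

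The label laminin-332 and hemidesmosome describes these cells only in part. LAMB3 was abundant, but its partner chain LAMA3 was at 0.316 to 0.411 FPKM. Of the further hemidesmosome and anchoring genes, COL17A1, the transmembrane collagen, was at 0.264 to 0.448 FPKM. The hemidesmosome plakin gene DST was present at 1.20 to 2.36 FPKM in the 6 libraries. COL7A1, of the anchoring fibrils, was at 0.246 to 0.267 FPKM in control and 2.05 to 2.80 FPKM in TGF-b1 libraries. The basal keratins KRT5 and KRT14 had 0 fragments in all 6 libraries, where a count of 0 allows up to 3 fragments per library.

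The upstream sequences of LAMB3, LAMA5 and LAMC1 are shown because these are the 3 laminin chains of the 9 genes that were abundant here. They are from RefSeq on GRCh38.p14 and give the 250 bases before a transcript start, 5′ to 3′ on the gene's strand. Capitals mark TGANTCA, a pattern that includes the site of AP-1 factors, and GGGCGG, the GC box, searched on both strands. The patterns CACCTG and CAGAC were also searched and are not marked. RefSeq windows were found for 5 of the 9 genes. ITGA3, ITGB4, PLEC and CD151 were not matched. The windows are, for LAMB3 the innermost of 3 starts at chr1:209651375-209651624 on the minus strand, for LAMA5 chr20:62367313-62367562 on the minus strand and for LAMC1 chr1:183023170-183023419 on the plus strand.
LAMB3: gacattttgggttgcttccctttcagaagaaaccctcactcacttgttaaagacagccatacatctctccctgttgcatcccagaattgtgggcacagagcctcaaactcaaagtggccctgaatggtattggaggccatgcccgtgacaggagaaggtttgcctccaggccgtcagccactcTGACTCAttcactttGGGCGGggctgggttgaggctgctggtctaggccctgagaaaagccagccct
LAMA5: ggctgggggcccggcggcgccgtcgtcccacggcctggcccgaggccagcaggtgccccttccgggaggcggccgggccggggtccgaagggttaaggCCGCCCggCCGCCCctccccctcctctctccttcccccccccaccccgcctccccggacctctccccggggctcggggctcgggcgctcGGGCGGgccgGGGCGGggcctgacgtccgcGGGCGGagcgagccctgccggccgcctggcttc
LAMC1: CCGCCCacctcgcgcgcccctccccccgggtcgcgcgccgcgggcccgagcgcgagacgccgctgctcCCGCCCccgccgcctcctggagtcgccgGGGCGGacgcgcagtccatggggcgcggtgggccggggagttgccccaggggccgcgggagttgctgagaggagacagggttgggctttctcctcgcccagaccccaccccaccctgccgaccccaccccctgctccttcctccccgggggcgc

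The LAMB3 window held 1 TGANTCA match, 67 bases before the start, and 1 GGGCGG match, and 20 of its bases are exonic in GENCODE. The windows at the other 2 LAMB3 starts, not printed because exons cover 98 and 41 of their bases, held 1 GGGCGG match each and no TGANTCA. The LAMA5 window held 5 GGGCGG matches and the LAMC1 window 3, with no TGANTCA in either. The window at the inner start of LAMA3, not printed because a GENCODE exon covers 180 of its bases, held 2 TGANTCA matches, at 125 and 69 bases before the start. Of 35116 windows of the same length, 6.57% held TGANTCA and 42.6% held GGGCGG. The motifs do not overlap each other in these windows, and a match is a run of letters, not a shown binding site.

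Among the laminin chains, LAMB3 fell with TGF-b1, LAMC1 and LAMA5 did not pass the test, and LAMA3 was too low to be tested. LAMB3, the beta chain of laminin-332, was at 110, 112 and 93.0 FPKM in control 1, 2 and 3 and at 76.8, 74.4 and 68.9 FPKM in TGF-b1 1, 2 and 3. Every control library was above every TGF-b1 library, and control 3 was the lowest of the controls. Mean LAMB3 was 105 ± 10.3 FPKM in control and 73.3 ± 4.05 FPKM in TGF-b1 libraries (SD, n = 3), a ratio of 0.699 (log2 change -0.51, SE 0.11, adjusted p = 0.032, limma on log2(FPKM + 1)). In bulk RNA, fewer cells with the transcript and less transcript per cell cannot be told apart. LAMB3 no longer passed when any 1 of control 1, control 2, TGF-b1 2 and TGF-b1 3 was left out (adjusted p = 0.11 to 0.18), nor with values rescaled to TPM (adjusted p = 0.053) or with no filter on low genes (adjusted p = 0.25). It still passed once a trend in GC content and gene length was taken out, at a log2 change of -0.34 (adjusted p = 0.0088).

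LAMA3, the alpha chain of laminin-332, was low in both groups. It was at 0.341, 0.316 and 0.392 FPKM in control and at 0.411, 0.321 and 0.321 FPKM in TGF-b1 libraries. These values rest on 105 to 133 fragments per library, and the groups overlapped fully. Summed over libraries, 350 control and 354 TGF-b1 fragments gave a ratio of 0.997 after scaling, with an exact 95% interval of 0.857 to 1.16 that covers counting error only. The LAMA3 row sums a short and a long transcript form with different starts, which the table does not separate.

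LAMC1, the gamma chain of most laminins, was at 53.8, 51.3 and 61.7 FPKM in control and 56.9, 58.9 and 58.6 FPKM in TGF-b1 libraries. Control 3 was the highest of the 6, and the groups overlapped (log2 change 0.07, SE 0.099, adjusted p = 0.68). LAMA5, the widespread alpha chain, was at 47.0, 40.0 and 40.5 FPKM in control and 39.9, 35.5 and 32.2 FPKM in TGF-b1 libraries. The LAMA5 groups were separated by a narrow margin, 40.0 against 39.9 FPKM, and the difference did not pass (ratio 0.843, log2 change -0.24, SE 0.11, adjusted p = 0.20).

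**Figure D1:**
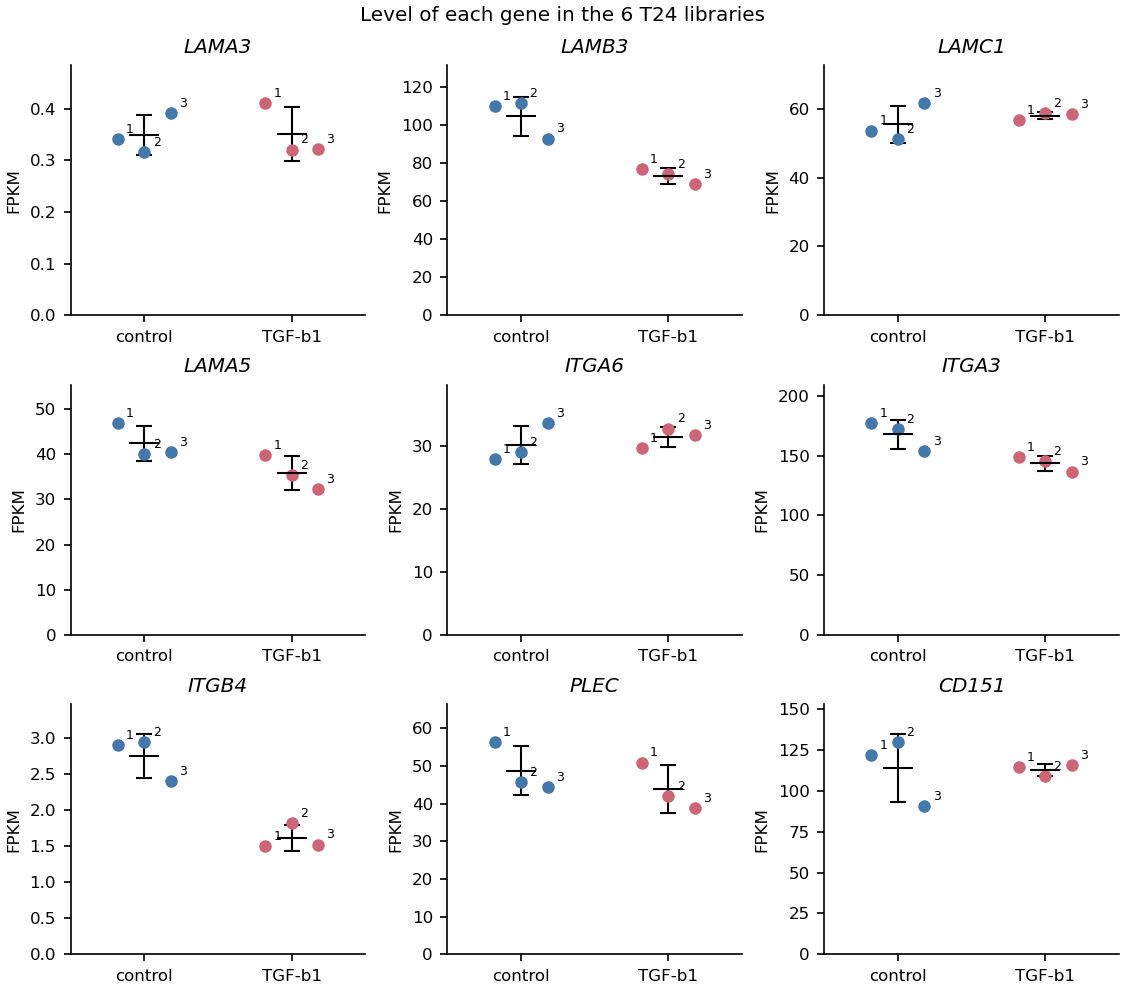
FPKM (linear axis from 0) of each of the 9 genes in the 3 control and 3 TGF-b1 libraries, with replicate numbers beside the points and bars for the mean and SD. LAMB3, ITGB4, ITGA3 and, by a narrow margin, LAMA5 show separate groups. LAMA3, LAMC1, ITGA6, PLEC and CD151 overlap, and control 3 is the lowest of the 6 libraries for CD151.

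By class, nearly all laminin alpha transcript came from LAMA5, which made up 98.4 to 98.9% of the summed FPKM of the 5 alpha chains. Among the 4 beta chains LAMB3 led with 77.2, 78.2 and 74.9% in control and 69.4, 70.3 and 70.2% in TGF-b1 libraries. LAMB1, the beta chain of the most widespread laminins, took 6.30, 6.41 and 8.54% in control and 10.9, 11.3 and 11.7% in TGF-b1 libraries. In both groups LAMB3 was the first beta chain by level, with a smaller share in each TGF-b1 library than in each control. The number of LAMB3 transcripts per LAMB1 transcript, by FPKM, went from 11.1 ± 2.0 to 6.2 ± 0.198 (SD, n = 3). These shares are within a library, so a scaling between libraries does not change them. A trend with GC content would not cancel in this way, as LAMB3 has 58.9% GC and LAMB1 49.5%. With the trend in GC content and length taken out, the log2 change went from -0.51 to -0.34 for LAMB3. For LAMB1 it went from 0.28 to 0.26. The shares were not recomputed without the trend.

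**Figure D2:**
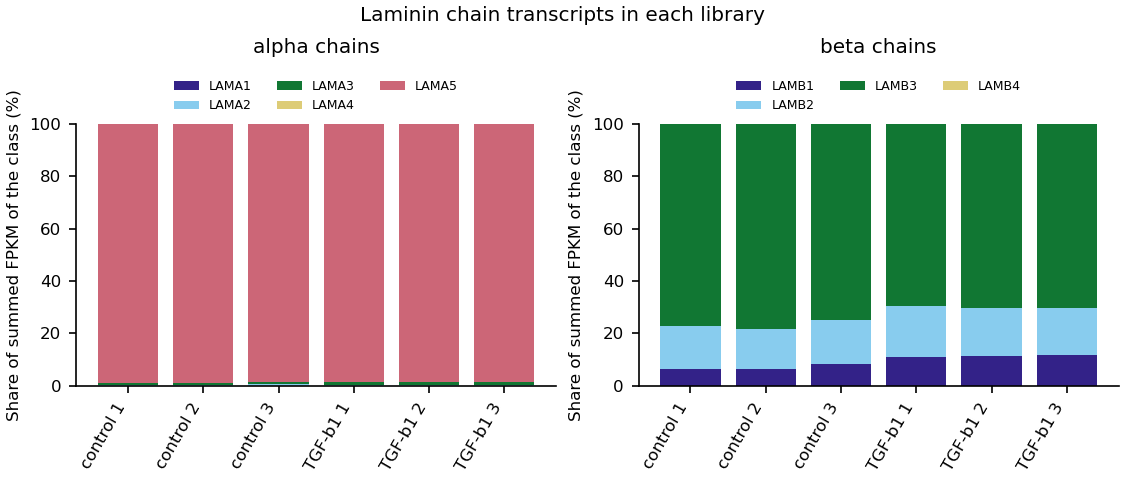
Share of the summed FPKM of the laminin alpha chains and of the beta chains, in percent, held by each chain in each of the 6 libraries. LAMA5 fills the alpha class in every library, and the LAMB3 share is 74.9 to 78.2% in controls and 69.4 to 70.3% in TGF-b1 libraries.

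Of the integrin subunits, ITGB4 fell and its partner ITGA6 did not pass the test. ITGB4, the beta subunit that pairs with ITGA6 in the hemidesmosome, was at 2.901, 2.93 and 2.39 FPKM in control and 1.49, 1.82 and 1.52 FPKM in TGF-b1 libraries. The groups did not overlap. The counts behind ITGB4 were 374 to 449 fragments per control and 216 to 295 per TGF-b1 library. Mean ITGB4 was 2.74 ± 0.303 FPKM in control and 1.61 ± 0.181 FPKM in TGF-b1 libraries (SD, n = 3), a ratio of 0.587. On log2(FPKM + 1), which understates changes of low genes, this was a log2 change of -0.52 (SE 0.10, adjusted p = 0.026, limma). By voom, limma's weighted fit on the recovered fragments, the log2 change was -0.76 (adjusted p = 0.0041). ITGB4 no longer passed after the trend in GC content and length was taken out (log2 change -0.33, adjusted p = 0.081), with TPM (adjusted p = 0.076), with no filter (adjusted p = 0.24), or when any 1 of control 1, control 2, TGF-b1 1 and TGF-b1 3 was left out (adjusted p = 0.058 to 0.14).

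ITGA6, the alpha subunit that pairs with ITGB4 or ITGB1, was at 27.9, 28.9 and 33.6 FPKM in control and 29.6, 32.7 and 31.7 FPKM in TGF-b1 libraries. The ITGA6 groups overlapped, with control 3 the highest of the 6 (log2 change 0.06, SE 0.10, adjusted p = 0.73), and the sign turned to -0.05 once the trend in GC content and length was taken out. ITGA3, the most abundant of the 9 genes, was at 177, 172 and 154 FPKM in control and 149, 145 and 136 FPKM in TGF-b1 libraries. Each TGF-b1 library was below each control, but the change did not pass (ratio 0.854, log2 change -0.22, SE 0.10, adjusted p = 0.20). Without control 3 it did (log2 change -0.28, adjusted p = 0.033), in a setting where 28.9% of all genes tested passed.

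PLEC and CD151, which link the receptors to keratin and to other membrane proteins, had no change past the threshold. PLEC was at 56.2, 45.6 and 44.4 FPKM in control and 50.9, 42.0 and 38.8 FPKM in TGF-b1 libraries. The PLEC groups overlapped (log2 change -0.15, SE 0.13, adjusted p = 0.46), and replicate 1 was the highest in both groups. CD151 was at 122, 130 and 90.5 FPKM in control and 115, 109 and 116 FPKM in TGF-b1 libraries. The control spread of CD151, 18.2% of the mean against 3.2% in the TGF-b1 group, came with control 3, the lowest of the 6. CD151 gave a log2 change of 0.00 (SE 0.13, adjusted p = 0.99), of -0.15 without control 3 (adjusted p = 0.16) and of 0.24 after the trend in GC content and length was taken out (adjusted p = 0.11).

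In all, 2 of the 8 tested genes passed an adjusted p of 0.05, both lower, where 2.44% of the 11363 genes tested passed in either direction and 1.29% were lower. Groups that did not overlap were found for 4 of the 8, all lower (LAMB3, LAMA5, ITGA3 and ITGB4), beside 12.5% lower, 14.6% higher and 27.1% in either direction over all genes tested. The median log2 change of the 8 was -0.19, and that of all genes tested was 0.01. After the trend in GC content and length was taken out, the medians were -0.08 and 0.00, and 1 of the 8, LAMB3, passed, beside 4.44% of all genes. By voom 2 of the 8 passed, LAMB3 and ITGB4, beside 8.24% of all genes. With TPM scaling LAMA3 entered the test too, and 0 of the 9 passed, beside 1.51% of all genes. Of these 9, 2 were at an unadjusted p under 0.05, and the matching share over all genes was not computed with TPM. Over all genes, 130 were higher and 147 lower in the fit used here, and 135 were higher and 85 lower with TPM scaling. The 9 genes were picked with these data known, so the counts describe them and test nothing about the list.

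The order of the mean levels was the same in both groups. In control libraries ITGA3 came first at 168 FPKM, followed by CD151 at 114, LAMB3 at 105, LAMC1 at 55.6, PLEC at 48.8, LAMA5 at 42.5, ITGA6 at 30.1, ITGB4 at 2.74 and LAMA3 at 0.35 FPKM. Between neighbours in this order, CD151 and LAMB3, LAMC1 and PLEC, and PLEC and LAMA5 overlapped in range. In TGF-b1 libraries CD151 at 113 and LAMB3 at 73.3 FPKM did not overlap, nor did LAMC1 at 58.1 and PLEC at 43.9 FPKM, while PLEC and LAMA5 at 35.8 FPKM did, as did LAMA5 and ITGA6 at 31.3 FPKM. The gap between ITGA6 and ITGB4 was 10.99-fold in control and 19.5-fold in TGF-b1 libraries.

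Ratios between genes of 1 complex compare them within a library. ITGA6 per ITGB4 was 9.61, 9.86 and 14.05 in control and 19.8, 17.98 and 20.9 in TGF-b1 libraries. All 3 TGF-b1 libraries were above all controls, with a difference of 0.83 on the log2 scale, a 1.77-fold higher ratio. The exact two-sided permutation test gave p = 0.1, the smallest that 3 against 3 libraries allow, and 0.17 adjusted over 5 ratios. LAMC1 per LAMB3 went from 0.489, 0.460 and 0.663 to 0.741, 0.792 and 0.851, a log2 difference of 0.58 with the same exact and adjusted p, and LAMA3 per LAMB3 was higher by 0.51 on the log2 scale, also with p = 0.1 in the exact test. ITGA3 per ITGA6 and LAMA5 per LAMA3 were lower by log2 differences of -0.29 and -0.25, with overlapping groups and an exact p of 0.2 each. By design none of the 5 could pass 0.05. The genes of a pair differ in GC content (ITGA6 has 42.9% and ITGB4 63.7%), and with values on log2(FPKM + 1) and the trend in GC content and length taken out, the log2 differences were 0.28 for ITGA6 per ITGB4, 0.37 for LAMC1 per LAMB3 and -0.06 for ITGA3 per ITGA6. On log2(FPKM + 1) alone, ITGA6 per ITGB4 differed by 0.58.

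**Figure D3:**
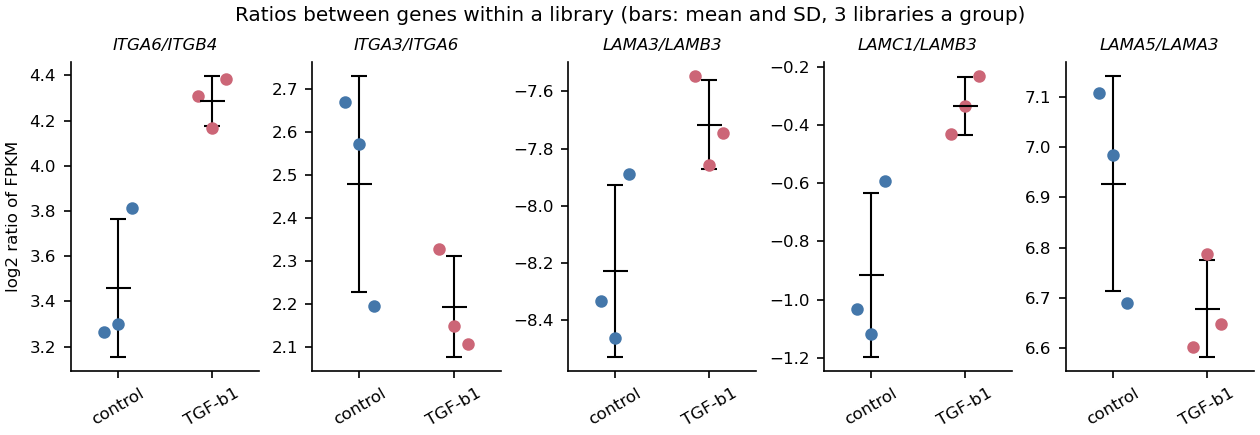
Log2 ratio of FPKM for 5 pairs of genes (each panel has its own axis range) in 3 control and 3 TGF-b1 libraries, with the mean and SD. ITGA6 per ITGB4, LAMA3 per LAMB3 and LAMC1 per LAMB3 have all TGF-b1 points above all control points, and the other pairs overlap.

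GC content moved with the changes across all genes, and most of these genes are rich in GC. With all tested genes in 10 equal bins by GC content of the longest transcript, the median log2 change ran from 0.17 in the bin of lowest GC to -0.26 in the bin of highest GC. LAMB3 has 58.9% GC and lies in bin 9, where the median was -0.18 and the middle 50% of genes ran from -0.30 to -0.06, beside -0.51 for LAMB3. ITGB4 (63.7% GC), LAMA5 (66.4%), PLEC (67.0%) and CD151 (62.6%) lie in bin 10, with the middle 50% at -0.39 to -0.14. ITGB4 at -0.52 was below that range, LAMA5 at -0.24 and PLEC at -0.15 were inside it, and CD151 at 0.00 was above it. ITGA3 (61.3%) at -0.22 was inside the range of its bin, also bin 9. LAMC1 (48.6%) and ITGA6 (42.9%) are poorer in GC. The part of GC content in these changes was not tested beyond taking out the trend.

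**Figure D4:**
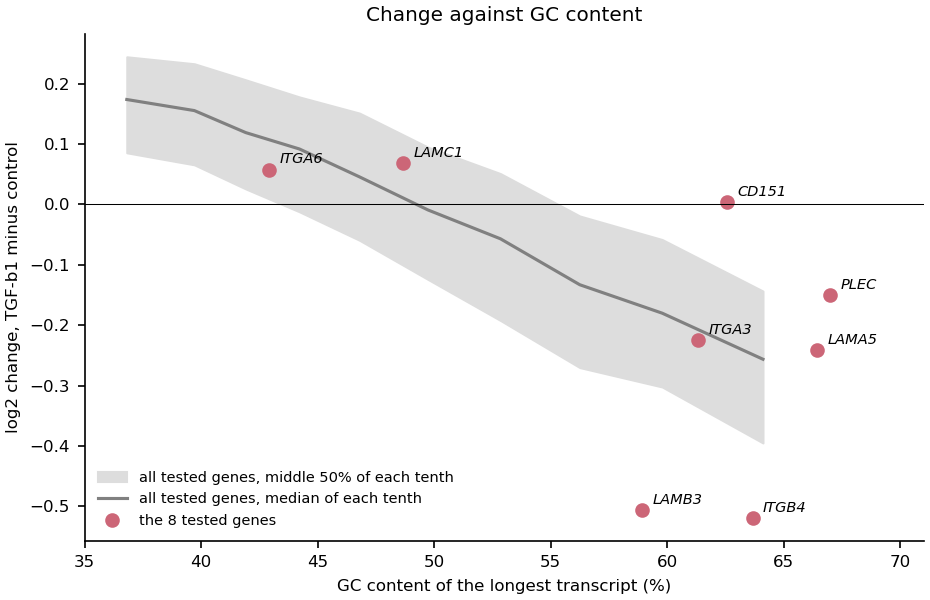
Log2 change (TGF-b1 minus control, on log2(FPKM + 1)) against GC content of the longest transcript in percent for the 8 tested genes, over the median and the middle 50% of all tested genes in 10 bins of GC content. LAMB3 and ITGB4 lie below the band at their GC content, CD151 above it, and ITGA3 within it.

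Control 3 stood apart from the other controls: without it, 3280 genes passed over the whole table instead of 277. For 6 of the 9 genes it was the control nearest to the TGF-b1 mean, LAMB3, ITGB4 and ITGA3 among them. The matching share over all genes was not computed. Without control 3, the log2 changes were -0.59 for LAMB3 (adjusted p = 0.0067) and -0.59 for ITGB4 (adjusted p = 0.0098). In that setting 3 of the 8 genes passed, all lower, beside 28.9% of all genes tested, 16.5% lower. The part of control 3 in the other results was not tested.

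**Figure D5:**
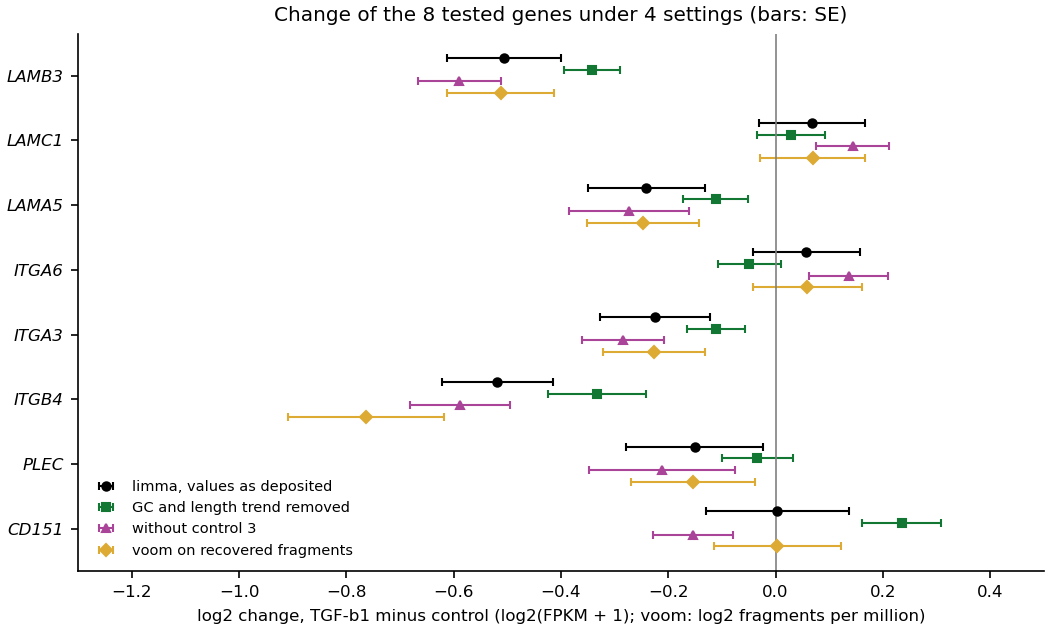
Log2 change and SE of the 8 tested genes under 4 settings: limma on the deposited values, with the GC and length trend removed, without control 3, and voom on recovered fragments. LAMB3 and ITGB4 are below 0 in all 4, and CD151 ranges from -0.15 to 0.24.

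Other basement membrane and adhesion genes were read from 6 lists of 41 genes, of which 24 were tested. COL7A1 and COL4A1 rose and BCAM fell, 3 of 24, beside 1.14% higher and 1.29% lower over all genes. COL7A1 and BCAM reached the 1 FPKM minimum only in the group where they were higher. The filter thus favoured them, and the count cannot be read against these shares. The median log2 change of the 24 was -0.0050, beside 0.012 over all genes. COL7A1 is the collagen of the anchoring fibrils that attach to laminin-332. It was at 0.246, 0.267 and 0.262 FPKM in control and 2.80, 2.19 and 2.05 FPKM in TGF-b1 libraries, a ratio of 9.08 (adjusted p = 0.00014). It reached the 1 FPKM minimum only in the TGF-b1 group, so it entered the test because it was higher there. Its fragments rose from 195 to 1785 in all, while those of LAMB3 went from 33458 to 23737.

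COL4A1, a collagen IV chain of the basement membrane, rose from 23.1 ± 1.33 to 37.5 ± 1.14 FPKM (SD, n = 3, adjusted p = 0.0030), with all 3 TGF-b1 libraries above the controls. Its partner COL4A2 stood at 29.5 ± 3.91 and 36.0 ± 5.14 FPKM (adjusted p = 0.21). The perlecan gene HSPG2 stood at 2.71 and 3.43 FPKM (adjusted p = 0.17), and agrin (AGRN) at 88.2 and 74.5 FPKM (adjusted p = 0.19). In the fit used here COL4A1 was the only 1 of the 8 tested genes of this list past the threshold. After the trend in GC content and length was taken out, HSPG2 passed as well (log2 change 0.34, adjusted p = 0.024).

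Among the other laminin receptors BCAM, a laminin alpha 5 receptor, fell from 1.53 ± 0.153 to 0.841 ± 0.119 FPKM (SD, n = 3, adjusted p = 0.048). BCAM passed the 1 FPKM minimum only through the control group, and it passed in only 4 of 16 alternatives. It missed the threshold after the trend in GC content and length was taken out (adjusted p = 0.20) and when any library other than control 3 was left out (adjusted p = 0.055 to 0.24). ITGB1, the partner of ITGA3 and ITGA6, was at 149, 156 and 179 FPKM in control and 206, 209 and 198 FPKM in TGF-b1 libraries. The ITGB1 groups did not overlap, and the change did not pass (log2 change 0.34, SE 0.11, adjusted p = 0.10; by voom adjusted p = 0.036). ITGB1 per ITGB4 was 51.3, 53.1 and 74.9 in control and 138, 115 and 130 in TGF-b1 libraries, so each of the 6 libraries held far more ITGB1 than ITGB4 transcript per length. Dystroglycan (DAG1) stood at 35.4 and 42.1 FPKM (adjusted p = 0.15) and syndecan-1 (SDC1) at 22.4 and 21.6 FPKM (adjusted p = 0.81).

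Of the 2 tested chains among the other laminins, 0 passed by limma and 0 by voom, with 1 at an unadjusted p under 0.05, beside 25.1% of all genes. LAMB1 was at 8.97, 9.15 and 10.6 FPKM in control and 12.03, 11.9 and 11.5 FPKM in TGF-b1 libraries (adjusted p = 0.12). LAMB1 passed without control 3 (log2 change 0.35, adjusted p = 0.014), where 28.9% of all genes passed. LAMB2 stood at 22.0 and 19.7 FPKM (adjusted p = 0.33). LAMA1, LAMA2, LAMA4, LAMB4 and LAMC3 stayed under 1 FPKM throughout. The plakin gene DST stood at 1.61 and 2.06 FPKM (adjusted p = 0.30). None of 6 tested tetraspanins passed, with 1 at an unadjusted p under 0.05 beside 25.1% of all genes, and 0 passed by voom. Without control 3, 2 of the 6 passed, both lower, beside 16.5% of all genes lower in that setting. TSPAN4, the gene next to CD151, stood at 22.7 and 18.1 FPKM (adjusted p = 0.13), CD63 at 90.5 and 73.1 FPKM (adjusted p = 0.29), CD82 at 13.97 and 12.3 FPKM (adjusted p = 0.49) and TSPAN14 at 4.05 and 3.63 FPKM (adjusted p = 0.37). Of 2 tested enzymes that cleave laminin-332 chains, 0 passed by limma or by voom and 0 were at an unadjusted p under 0.05. BMP1 stood at 1.62 and 1.51 FPKM (adjusted p = 0.74) and MMP14 at 10.6 and 11.2 FPKM (adjusted p = 0.76).

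In the GENCODE annotation of GRCh38, LAMB3 lies on chromosome 1 at 209614870 to 209652466, LAMC1 on chromosome 1 at 183023460 to 183145592, LAMA3 on chromosome 18 at 23689443 to 23956222 and LAMA5 on chromosome 20 at 62307955 to 62367312. ITGA6 lies on chromosome 2 at 172427354 to 172506282, ITGA3 on chromosome 17 at 50055968 to 50090481, ITGB4 on chromosome 17 at 75721328 to 75757818, CD151 on chromosome 11 at 832843 to 839831 and PLEC on chromosome 8 at 143915147 to 143976734. The values sum all exons of a gene.

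The nearest tested gene on each side of each of the 9, and any gene overlapping it, was read. G0S2 and GALK1 passed, where 2.44% of all genes tested passed in either direction. They are named because they passed, and nothing is read from their number. G0S2, an inhibitor of triglyceride lipase 22953 bp from LAMB3 on the opposite strand, fell from 13.8 ± 2.44 to 5.15 ± 0.756 FPKM (SD, n = 3, log2 change -1.26, adjusted p = 0.0011). ITGB4 overlaps GALK1, the galactokinase gene on the opposite strand, which stood at 10.6 and 6.65 FPKM and was also lower (log2 change -0.58, adjusted p = 0.033). GALK1 missed the threshold in 10 alternatives, among them the one with the trend in GC content and length taken out (adjusted p = 0.062). No exon base is shared between ITGB4 and GALK1. CD151 shares 257 exon bases, 6.53% of its length, with POLR2L, and LAMA5 shares 244 with ADRM1, both on opposite strands. The sources used here do not say whether strand was used in counting. Fragments in those shared bases cannot be assigned to 1 gene or the other.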

How the data were processed

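RNA of 6 T24 libraries, 3 control and 3 TGF-b1, was analysed from the deposited gene table. The submitters' processing notes name hg38 as build, HISAT2 2.0.5 as aligner and, as counter, featureCounts 1.5.0-p3. Strand setting, annotation and trimming: not given in the sources used here. The deposited values are FPKM computed by the authors, and the 6 per-library files repeat the table. The first 11 rows, mapping totals, were left out.

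Rows were matched by symbol to GENCODE 29, giving 56923 uniquely named genes. FPKM times exon length gave whole fragments for 99.999% of 126561 values above 0 (within 0.05). The FPKM denominators were 0.964 to 1.04 times the assigned fragments, so the deposited values already carry a scaling between libraries.

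The test was limma 3.58.1 (R 4.3.3; trend, robust) on log2(FPKM + 1) over the 11363 genes that reached 1 FPKM in 3 or more libraries, Benjamini-Hochberg adjusted over all of them, with a threshold of 0.05. A pseudocount of 1 understates changes of low genes. Ratios between genes had exact permutation tests. The code was checked on simulated data. Libraries of a group differed beyond sampling noise (chi-square over its degrees of freedom 6.08 to 26.2, where sampling alone gives 1), so none was counted as a repeat.

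Alternatives were another pseudocount, no filter, a minimum of 5 FPKM, TPM and upper-quartile scaling, plain limma, a replicate block, voom on recovered fragments, removal of a loess trend with GC content and length (span 0.3) and leaving out each library. The members, lists and tests were chosen with earlier results of these data known. All 9 genes are given. From each list up to 4 tested genes are named, the others entering only the counts: any that passed, then those of greatest absolute change.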

Additional observations from a re-analysis of the deposited data

How the results depend on the processing

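The count of genes past the threshold, 277 over all genes, was 15 when low genes were not filtered, 500 when 5 FPKM was required, 931 by voom on recovered fragments, 501 once GC and length trends were taken out, 767 with the replicate block and 554 with both the replicate block and the trends out. Leaving out 1 library gave 124 to 3280, the highest without control 3. Of the 9 genes, 2 passed; 1 passed at 5 FPKM (which drops ITGB4), once GC and length trends were taken out and with the replicate block added to that, and 0 passed with no filter (3 at an unadjusted p under 0.05) or with TPM scaling (2). Leaving out 1 library gave 0 to 3. Of the wider lists 3 passed, 1 with no filter and 1 at a minimum of 5 FPKM, and 2 to 9 on leaving out 1 library. Added after the data were seen, leaving out control 3 and taking out the GC and length trends gave 958 of all genes, 1 of the 9 (LAMB3, adjusted p = 0.019) and 5 of the wider lists.

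The labels give same-numbered libraries a shared number and do not say whether they were paired. Their deviations correlated at 0.25, -0.07 and 0.17. The values for replicates 1 and 3 were the highest of all pairings, while control 2 correlated best with TGF-b1 1, at 0.06. Whether the libraries were paired cannot be told from these values. With the replicate block the LAMB3 and ITGB4 calls were kept (adjusted p = 0.026 and 0.030), and COL4A2 passed only with both the replicate block and the trends out (adjusted p = 0.034). Pairing cannot change the differences of the 5 ratios, and paired sign flips of 3 pairs cannot go below p = 0.25 (exact). LAMB3 kept its sign in all 17 alternatives and its call in 11, ITGB4 its sign in all 16 and its call in 7. The 5 ratios kept their sign in every alternative that was run for them. Ratios with LAMA3 were not run with the GC and length trends out, as LAMA3 was not among the genes tested.

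Signs turned only for genes that did not pass. Once the GC and length trends were taken out, in the fits with and without the replicate block, ITGA6 was at -0.049, SDC1 at 0.16, CD82 at 0.016 and BMP1 at 0.076. With control 3 left out as well, ITGA6 was at -0.017, LAMB2 at 0.0081, SDC1 at 0.15 and BMP1 at 0.10. SDC1 was at 0.035 with TPM. On leaving out 1 library, CD151 ran from -0.15 (without control 3) to 0.10, SDC1 from -0.14 to 0.020, BMP1 from -0.17 to 0.017, MMP14 from -0.056 to 0.14 and ACTB from -0.029 to 0.11. The causes were not tested. Depth limits LAMA3, with 105 to 133 fragments per library, and not the abundant genes, where the spread between libraries sets the error.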

Other observations

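For the genes past the threshold, the tested genes with the most similar pattern were read over the 6 libraries on log2(FPKM + 1), as a description with no test. For LAMB3 they were CHMP1B (Pearson r = 0.998), at 10.8, 10.9 and 9.95 FPKM in control and 8.90, 8.63 and 8.26 FPKM in TGF-b1 libraries, and LAMTOR2 (r = 0.998), at 25.6, 25.4 and 21.0 and at 17.2, 16.8 and 15.9 FPKM. For ITGB4 they were ARSE (r = 0.996), at 4.19, 4.18 and 3.35 and at 2.03, 2.30 and 1.92 FPKM, and RGS9 (r = 0.994), at 1.71, 1.74 and 1.64 and at 1.36, 1.44 and 1.36 FPKM. In all 4 genes control 3 was the lowest control. The libraries are shared by all these correlations, and the highest of so many values is high by selection.

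The keratins that hemidesmosomes of simple epithelia would meet were lower by mean without passing the test used here. KRT18 was at 325, 375 and 265 FPKM in control and 237, 232 and 212 FPKM in TGF-b1 libraries (adjusted p = 0.079). KRT18 passed in 6 of 17 alternatives, among them voom (adjusted p = 0.016) and leaving out control 3 (adjusted p = 0.0097). KRT8 was at 232, 243 and 192 FPKM in control and 188, 191 and 185 FPKM in TGF-b1 libraries (adjusted p = 0.22), and passed in 1 of 17 alternatives, without control 3 (adjusted p = 0.020). The groups did not overlap for either keratin. As reference genes, ACTB stood at 2373 ± 173 and 2462 ± 245 FPKM (adjusted p = 0.81) and GAPDH at 2463 ± 271 and 2073 ± 154 FPKM (adjusted p = 0.24) (SD, n = 3).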
